A study of Arabidopsis thaliana with 6 samples.

Results

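Cytochrome P450 monooxygenase genes were compared between wild-type Arabidopsis thaliana (WT) and 35S::KLU plants, which carry the P450 gene KLU, also named CYP78A5, behind the strong and broadly active 35S promoter of a plant virus. Members were the genes that had an Affymetrix ATH1 probe set paired with exactly 1 gene in the platform annotation and whose symbol there was CYP followed by 2 or 3 digits and a letter. The rule picks genes by symbol and annotation, without a measured value. It gave 23 genes of 13356 with a single-gene probe set, each reported by 1 probe set, the group of short probes that reports a transcript. Among the 13356, a gene with several such probe sets was represented by the brightest, on the mean over the 6 arrays. Cyclophilin genes with similar symbols, such as CYP59, were left out, and so were 2 probe sets that listed a P450 gene together with another gene.

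Both genotypes were in the Col-0 accession, and RNA came from shoots at growth stage 1.03 that had grown untreated at 21 °C in days of 16 h of light. Each genotype had 3 arrays, which the design text ties to 3 independent experiments, with 5 seedlings per sample and the genotypes sharing plates. How many independent 35S::KLU lines were used is not given in the sources used here. KLU itself had no probe set paired with it in the annotation, so its level was not analysed here and the genotype labels could not be checked against it.

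Cytochrome P450 enzymes hold a haem group and use oxygen and electrons from NADPH, usually passed on by a partner reductase, to add oxygen to small molecules. In plants they form a very large superfamily that makes and breaks down hormones, pigments, wax and cutin monomers, and defence compounds. A name gives the family as a number, the subfamily as a letter and the gene as a last number. The CYP78A subfamily, to which KLU belongs, acts in organ growth, whereas CYP71B is a large subfamily in which few enzymes have a known substrate.

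The measured genes covered the superfamily unevenly. RefSeq lists 236 Arabidopsis genes with such symbols in 40 families, and 9.75% of them were measured here, from 5 families. Of the 23, 19 belonged to the subfamily CYP71B, for which RefSeq lists 36 genes, and families 51, 78, 79 and 84 had 1 gene each. The values therefore describe CYP71B and 4 other genes rather than the superfamily. P450 genes without a listed probe set may be reported by probe sets that carry no gene name in the annotation. Lists of P450 genes by role, 15 lists of 95 genes in all, had 5 measured members, each in a list of its own, and 10 lists had 0, among them those for brassinosteroid, abscisic acid, gibberellin, jasmonate, and cutin and wax. Of 12 redox partners (P450 reductases, cytochrome b5 and related proteins) and 31 P450 genes looked for under other symbols such as DWF4, 0 had a single-gene probe set.

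Values are log2 signals after RMA, a method that corrects background and brings arrays to a common distribution. Array medians lay between 6.01 and 6.05. Of 20 shoot markers, 4 were measured, all above the upper quartile of the probe sets (7.77), and of these 0 passed the test between genotypes. Of 16 root markers, 3 were measured. EXPA7 and EXPA18, which are specific to root hairs, lay between the lower quartile (4.09) and the median (6.02) in signal, while PYK10, a myrosinase gene of roots and hypocotyls, was at 10.25 ± 0.26 in WT and 10.68 ± 0.15 in 35S::KLU (SD over n = 3 arrays). The difference of PYK10 was 0.43 on the log2 scale (limma adjusted p = 0.078). EXPA7 and EXPA18 differed by -0.17 and -0.07, in the opposite direction (adjusted p = 0.29 and 0.81). The linear signals of these 3 genes, nearly all of them from PYK10, summed to between 1088 and 1518 in WT and between 1561 and 1883 in 35S::KLU, without overlap, and their part in the results below was not tested. No measured marker of anthers (1 of 5) or guard cells (2 of 5) passed the test, and markers of flowers and trichomes had 0 measured genes.

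Of the 23 measured P450 genes, 2 were called higher in 35S::KLU, CYP71B26 and CYP71B6. CYP71B22 was the 1 called lower, a call kept in only 1 of the 6 fits that left out an array. All 3 are CYP71B genes, as are 19 of the 23 measured, and the changes were between 1.31-fold and 1.41-fold. The other 20 genes did not pass. Differences are 35S::KLU minus WT in log2 units from a limma fit over all 22746 probe sets. The threshold was a Benjamini-Hochberg adjusted p of 0.05, and the 95% intervals below are per gene and unadjusted. In whole shoots, a lower signal from fewer cells of a type cannot be told apart from less RNA per cell. Of the 23 genes 8.70% were called higher and 4.35% lower, against a background of 3.51% and 3.34% of all 13356 genes, and 6.85% in either direction. With counts of 2 and 1 these shares rest on single genes.

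**Figure D1:**
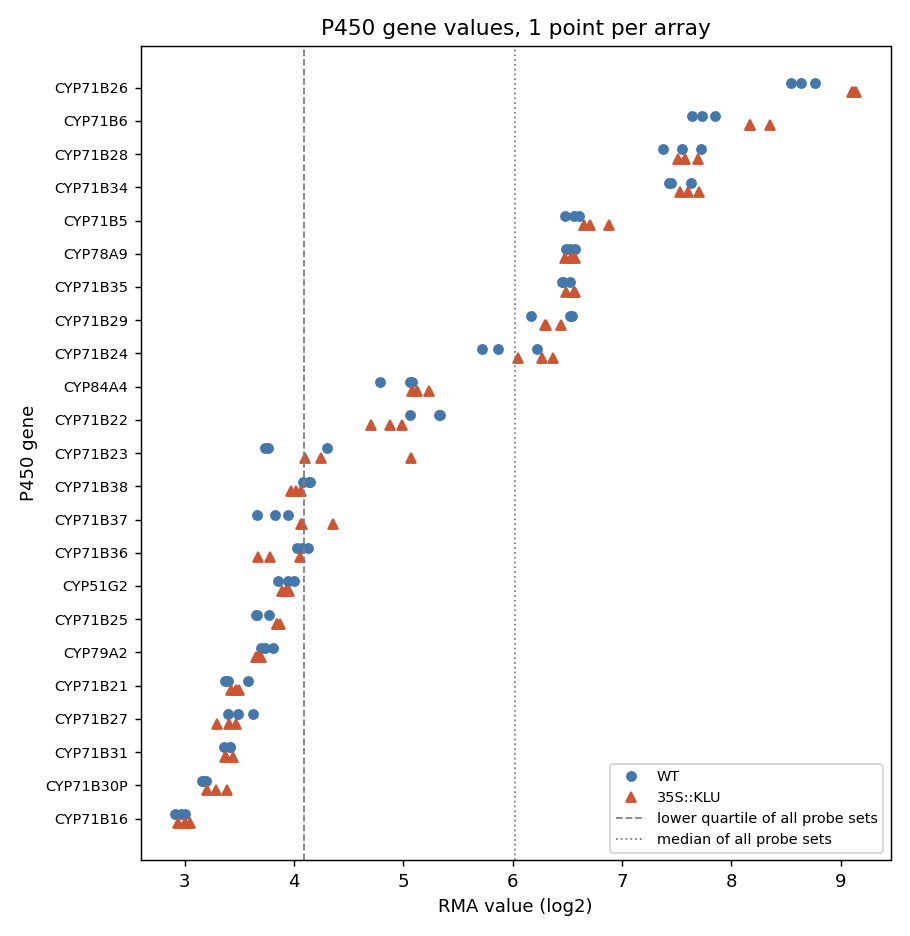
RMA value (log2, horizontal axis) of each of the 23 P450 genes on every array, with circles for the 3 WT arrays and triangles for the 3 35S::KLU arrays, and with the lower quartile and the median of all probe sets as dashed and dotted lines. The triangles of CYP71B26 and CYP71B6 lie to the right of their circles, those of CYP71B22 to the left, and 11 genes have means below the lower quartile.

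CYP78A9, the single measured relative of KLU in its own subfamily and known for enlarged fruits when overexpressed, did not differ between the genotypes beyond its spread. Its log2 values were 6.49, 6.57 and 6.52 in WT and 6.57, 6.54 and 6.48 in 35S::KLU. The arrays of the genotypes were fully intermixed. The difference was 0.00 with a 95% interval from -0.15 to 0.15 (limma adjusted p = 0.99).

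The 3 measured genes of families 51, 79 and 84 did not pass either. CYP79A2 converts phenylalanine to its aldoxime on the way to benzylglucosinolate, and its signal was dim, at 3.81, 3.73 and 3.70 in WT and 3.65, 3.69 and 3.67 in 35S::KLU. All of its 35S::KLU arrays were below its WT arrays, but by a difference of only -0.08 (interval -0.23 to 0.07, limma adjusted p = 0.59). CYP84A4, which acts in the synthesis of arabidopyrones from phenylpropanoids, had values of 4.78, 5.08 and 5.06 in WT and 5.23, 5.08 and 5.13 in 35S::KLU. They overlapped, with a difference of 0.17 (interval -0.04 to 0.38, limma adjusted p = 0.34). CYP51G2, a paralogue of the sterol 14-demethylase gene CYP51G1 that RefSeq records as a transcribed pseudogene, differed by -0.01 (interval -0.17 to 0.15), with means of 3.93 ± 0.07 and 3.92 ± 0.03 (SD over n = 3 arrays) that lay below the lower quartile in both genotypes.

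CYP71B26 had log2 values of 8.77, 8.55 and 8.63 in WT and 9.13, 9.11 and 9.14 in 35S::KLU. All its 35S::KLU arrays were above all its WT arrays, and they lay much closer together (SD 0.02 against 0.11). The gene rose 1.39-fold (difference 0.48, SE 0.08, limma adjusted p = 0.0048). CYP71B6, which acts on indole-3-acetonitrile, a breakdown product in indolic defence metabolism, had values of 7.85, 7.64 and 7.73 in WT and 8.35, 8.17 and 8.17 in 35S::KLU. Its groups did not overlap, and it rose 1.41-fold (difference 0.49, SE 0.08, limma adjusted p = 0.0068). On the mean over the 6 arrays both genes lay above the upper quartile of the probe sets (7.77), but the WT mean of CYP71B6 (7.74) was below it. Both kept their call on leaving out each array in turn, with adjusted p up to 0.031 for CYP71B26 and 0.041 for CYP71B6. CYP71B6 was the single measured member of the list of camalexin and related defence genes.

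CYP71B22 had values of 5.33, 5.34 and 5.06 in WT and 4.88, 4.70 and 4.98 in 35S::KLU. Its groups did not overlap, although the lowest WT array and the highest 35S::KLU array were close to each other. It was 1.31-fold lower in 35S::KLU (difference -0.39, SE 0.10, limma adjusted p = 0.047). This call was lost without WT replicate 1 (adjusted p = 0.105), WT replicate 2 (0.179), 35S::KLU replicate 1 (0.0908), 35S::KLU replicate 2 (0.153) or replicate 3 of that genotype (0.0536), and it passed without WT replicate 3 (adjusted p = 0.025). It was also lost under cyclic loess normalization (0.0534) and when p-values were adjusted over 1 probe set per gene (0.0526).

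**Figure D2:**
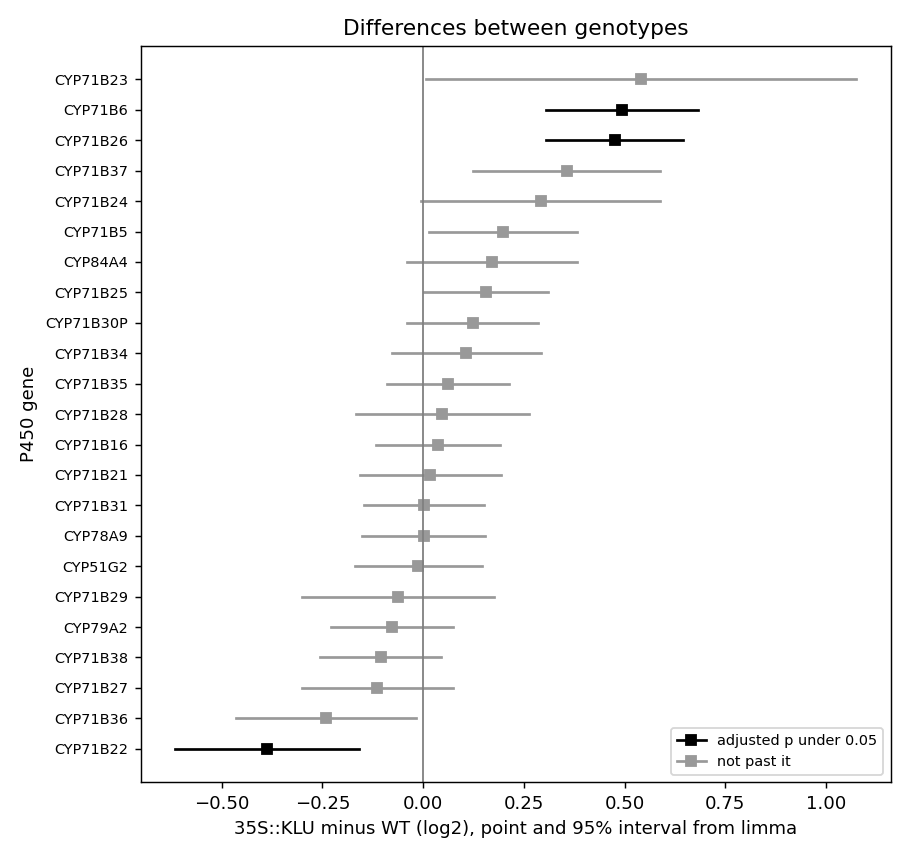
Difference between genotypes (35S::KLU minus WT, log2, horizontal axis) of the 23 P450 genes, with the 95% interval of the limma fit as a line and genes past an adjusted p of 0.05 in black. The estimates run from -0.39 for CYP71B22 to 0.54 for CYP71B23, whose interval is the widest.

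The genes nearest to the threshold without passing it were CYP71B37, CYP71B5 and CYP71B36. CYP71B37 was dim, with values of 3.83, 3.66 and 3.94 in WT and 4.08, 4.07 and 4.35 in 35S::KLU, and its groups did not overlap. Its difference was 0.36 (interval 0.13 to 0.59, limma adjusted p = 0.068). It passed with array weights (difference 0.44, adjusted p = 0.0184) and with a trended and robust eBayes (adjusted p = 0.0484). It did not pass under cyclic loess normalization (adjusted p = 0.0508), and it passed in 0 of the 6 fits that left out an array (adjusted p up to 0.24). CYP71B5 had values of 6.48, 6.61 and 6.56 in WT and 6.88, 6.71 and 6.66 in 35S::KLU, again without overlap, and differed by 0.20 (interval 0.02 to 0.38, adjusted p = 0.19). CYP71B36, also dim, had values of 4.13, 4.07 and 4.02 in WT and 4.05, 3.67 and 3.78 in 35S::KLU. Its replicate 1 of 35S::KLU lay among the WT arrays, and the difference of -0.24 (interval -0.46 to -0.02, adjusted p = 0.19) passed without that array (-0.35, adjusted p = 0.041) and was -0.16 without replicate 2 of 35S::KLU (adjusted p = 0.468).

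CYP71B23 varied most between replicates. Its values were 4.30, 3.76 and 3.73 in WT and 4.24, 4.097 and 5.07 in 35S::KLU, so that 1 array of each genotype stood above the other 2. Its difference of 0.54 was larger than that of either gene that rose, but its SE was 0.24 (interval 0.01 to 1.08, limma adjusted p = 0.22). Without 35S::KLU replicate 3 the difference was 0.24, and without WT replicate 1 it was 0.73. CYP71B24, the next P450 gene but 1 along the chromosome, had values of 6.23, 5.87 and 5.72 in WT and 6.37, 6.05 and 6.27 in 35S::KLU. In it, too, WT replicate 1 was the highest WT array. Its difference was 0.29, with an interval that included 0 (-0.005 to 0.59, adjusted p = 0.24). CYP71B24 passed without WT replicate 1 (0.44, adjusted p = 0.0423) but its difference was 0.18 without WT replicate 3 (adjusted p = 0.528).

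Other members differed by small amounts. CYP71B34 and CYP71B28, with signals well above the median, had means of 7.50 ± 0.11 and 7.55 ± 0.17 in WT and 7.61 ± 0.09 and 7.60 ± 0.09 in 35S::KLU (SD over n = 3 arrays), and differences of 0.11 and 0.05. CYP71B35 and CYP71B29 differed by 0.06 and -0.06. Their groups overlapped in all 4 genes. Among dim genes, CYP71B25 (0.16) and CYP71B30P (0.12) had all their 35S::KLU arrays above their WT arrays, and CYP71B38 (-0.11) had all of them below. Their adjusted p-values were between 0.22 and 0.42. CYP71B31, which oxidises linalool in flowers, was at 3.39 ± 0.03 in WT and 3.40 ± 0.04 in 35S::KLU, a difference of 0.00. CYP71B27, recorded by RefSeq as a transcribed pseudogene, differed by -0.11, CYP71B16 by 0.04 and CYP71B21 by 0.02.

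Of the 23 genes 11 lay below the lower quartile of the probe sets, where 0 were called, beside 0.384% of all genes at that level. Of the 2 genes above the upper quartile both were called (13.6% of all genes there), of the 7 between it and the median 0 (11%), and of the 3 between the median and the lower quartile 1 (4.97%). Only 3 calls stand behind these counts. The level of a gene is its mean over the 6 arrays of both genotypes, so a rise adds to it. CYP71B6 lay above the upper quartile (7.77) on that mean, but its WT mean (7.74) was below it. For 17 of the 20 genes that were not called, the 95% interval of the difference lay within 0.5 log2 units of 0 on both sides. The other 3 were CYP71B37, CYP71B23 and CYP71B24, whose intervals reached above 0.5. Apart from CYP71B37, the genes below the lower quartile were all among the 17. Whether RMA understates a change at that level was not tested. The SD within a genotype had a median of 0.08 over the genes and reached 0.52 for CYP71B23 in 35S::KLU.

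**Figure D3:**
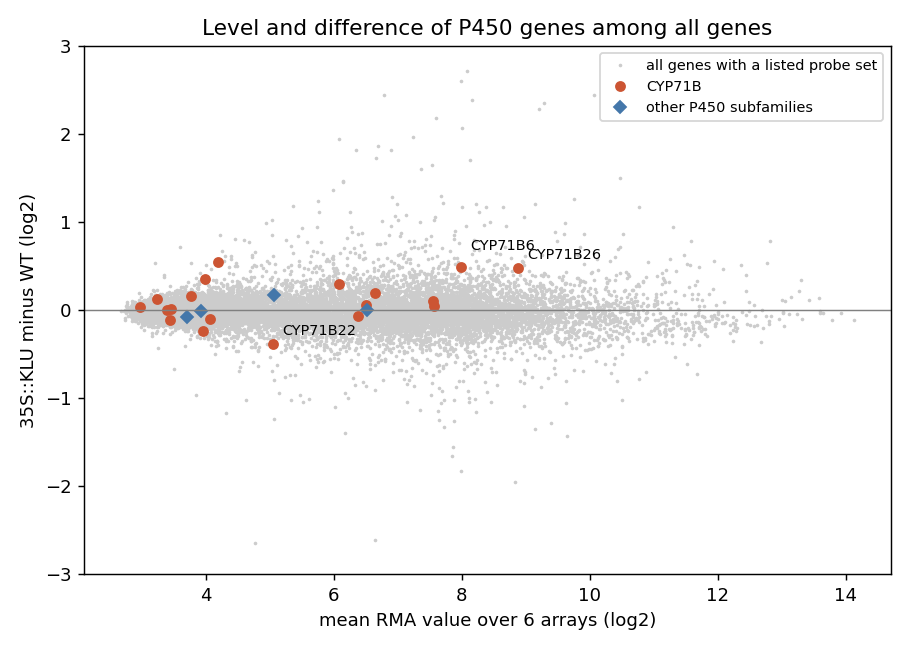
Mean RMA value over the 6 arrays (log2, horizontal axis) against the difference between genotypes (35S::KLU minus WT, log2, vertical axis) for all 13356 genes in grey, CYP71B genes as filled circles and the other 4 P450 genes as diamonds. No measured P450 gene differed by more than 0.54 on the log2 scale. Both genes called higher lie above the upper quartile of all probe sets (7.77) on this mean, which includes the 35S::KLU arrays. KLU had no probe set paired with it in the annotation and was not analysed.

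Most of the measured CYP71B genes lie beside each other. With at most 2 genes of another kind allowed between neighbours in the RefSeq order, 17 of the 19 fall into 4 runs of 27 CYP71B loci in all. They are CYP71B27 to CYP71B7 on chromosome 1 (3 of 5 loci measured) and, on chromosome 3, CYP71B16 to CYP71B24 (5 of 10), CYP71B25 to CYP71B37 (6 of 8) and CYP71B5 to CYP71B32 (3 of 4). The 2 longest runs are separated by only 6 genes. CYP71B6 and CYP71B38 lie apart. Genes that arose by tandem duplication can be so alike that a probe set of one responds to another, and this was not tested for these probe sets.

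Differences within the runs were as follows. In CYP71B25 to CYP71B37 the differences ran from -0.24 to 0.48 with a median of 0.13, and CYP71B26 was the single gene called. CYP71B16 to CYP71B24 spanned -0.39 to 0.54 (median 0.04), with CYP71B22 called. The run CYP71B5 to CYP71B32 lay between 0.00 and 0.20, and CYP71B27 to CYP71B7 between -0.11 and 0.05, with 0 genes called in either. The nearest genes with a listed probe set that are not P450 genes, on either side of the runs, were 6 in all. The 2 longest runs had the same 2, with differences of -0.02 and 0.01. Those of CYP71B27 to CYP71B7 differed by -0.14 and -0.10. Beside CYP71B5 to CYP71B32 the differences were 0.15 and 0.27, and 1 of these 2 genes was called, the only 1 of the 6.

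Adjacent genes were compared within each array, by the log2 ratio of the second to the first, for all 8 pairs of neighbouring measured loci. In 4 pairs the ratios of the 2 genotypes did not overlap. For these the exact two-sided permutation p was 0.1, the smallest that 3 arrays against 3 can give. It was 0.2 after adjustment over the 8 pairs, so no pair could pass and the test decides nothing. How often other gene pairs separate in this way was not determined. The largest shift was between CYP71B22 (-0.39) and CYP71B23 (0.54), whose ratio was 0.93 higher in 35S::KLU in log2 units, with all 3 arrays above all WT arrays. For CYP71B36 (-0.24) and CYP71B37 (0.36) the ratio was 0.60 higher, also without overlap. The other 2 were CYP71B35 with CYP71B36 (-0.30) and CYP71B30P with CYP71B31 (-0.12).

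**Figure D4:**
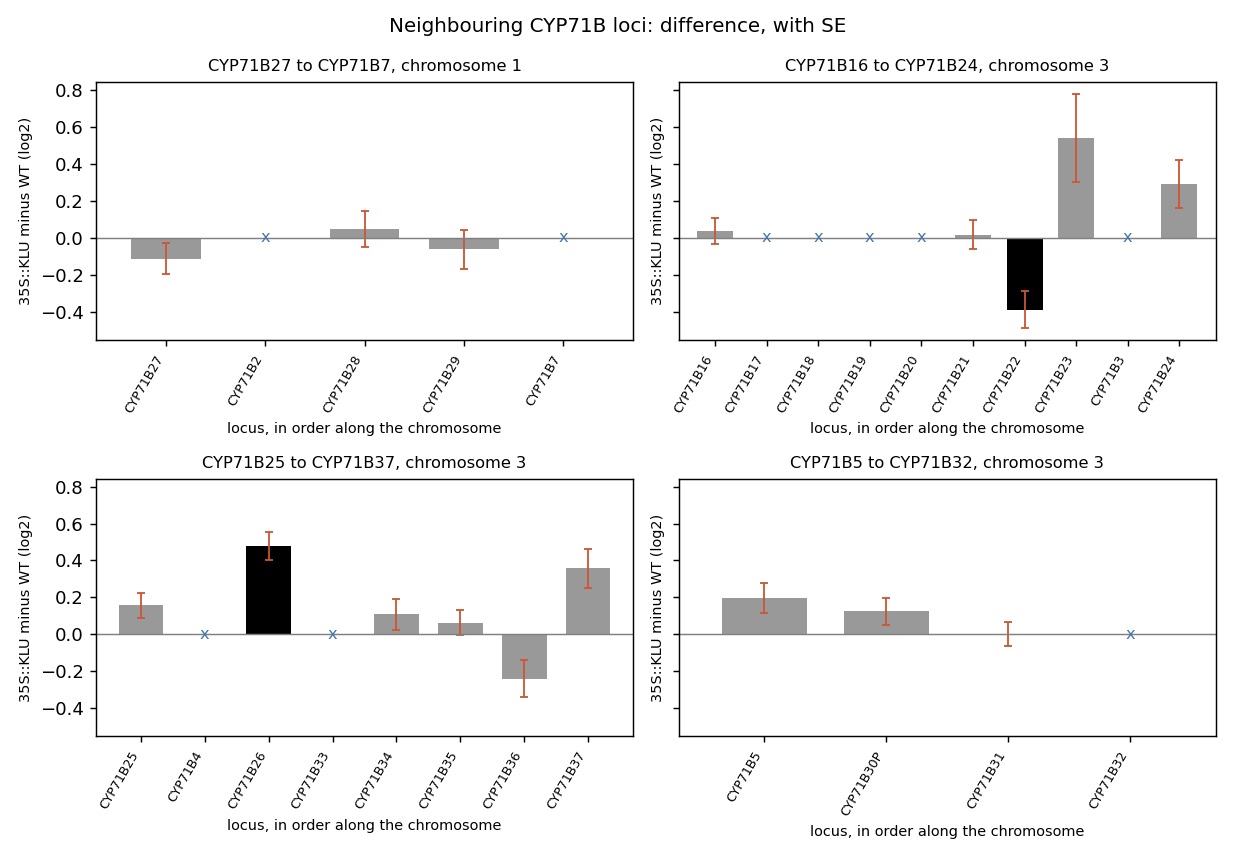
Difference between genotypes (35S::KLU minus WT, log2, vertical axis) for the CYP71B loci of the 4 runs in chromosome order, with bars for measured genes (black where the adjusted p was under 0.05), error lines for the SE of the limma fit and a cross for each locus not measured. CYP71B22 and CYP71B23 stand next to each other at -0.39 and 0.54, and CYP71B36 and CYP71B37 at -0.24 and 0.36.

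Over all 23 genes the median difference was 0.05, beside -0.02 over all 13356 genes, and 16 genes had a positive and 7 a negative estimate, beside 44.5% positive over all genes. The medians were 0.05 to 0.07 for the P450 genes and -0.01 to 0.00 for all genes under 3 other scalings of the arrays, with 16 positive and 7 negative estimates under each. Without WT replicate 1 the median of the P450 genes was 0.07, and 14 estimates were positive and 9 negative there, without WT replicate 3 and with array weights. Among CYP71B genes 14 of 19 estimates were positive, with a median of 0.06. All 3 35S::KLU arrays lay above all 3 WT arrays for 6 of the 23 genes (26.1%), beside 10.2% of all genes, and below them for 3 (13.0%), beside 13.3%. The 6 were CYP71B26, CYP71B6, CYP71B37, CYP71B5, CYP71B25 and CYP71B30P, and the 3 were CYP71B22, CYP71B38 and CYP79A2. These shares describe 23 genes, many of them neighbours in the runs above, and no test was made over them.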

How the data were processed

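Per the labels, RNA of each sample was labelled with biotin and hybridised to 1 single-colour array. The values the authors deposited are log2 signals per probe set. RMA is named in the submitters' processing notes, and its version is not given in the sources used here. The 64 control probe sets were left out of 22810 and no filter on level was used. Genes were named from the platform annotation, by entrez identifier through RefSeq (TAIR10.1), and all 23 symbols matched. No coordinates are given because the files name no genome build.

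Differences were tested with limma 3.58.1 (lmFit and eBayes, R 4.3.3) on the 6 arrays together. Tests were two-sided, and Benjamini-Hochberg adjustment covered all 22746 probe sets. On simulated data of this size, limma recovered 57% of 100 probe sets shifted by 0.5 log2 units and 97% of 100 shifted by 1, and made 3 false calls. In the data 1893 probe sets were called, far more than were shifted there, so these shares need not hold for the data. The main fit has no replicate block.

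The members and lists were chosen with earlier results of these data known. Named genes were, by rule, CYP78A genes, those past the threshold, the 3 next to it, the 5 brightest, up to 3 of each role list, the extremes of families with 5 or more genes, and genes with an SD over 0.5, and the remaining members were named to account for all. Tables were made with Python 3.11.15, pandas 2.3.3 and matplotlib 3.10.9.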

Additional observations from a re-analysis of the deposited data

How the results depend on the processing

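CYP71B26 and CYP71B6 rose under every alternative run: 3 other scalings, the filter on dim probe sets, array weights, other eBayes settings, the replicate block, each array left out, averaging over probe sets (the same values here, since each P450 gene has 1), and adjustment over 1 probe set per gene. They also passed an adjusted p of 0.01. The number of P450 genes that fell, 1 in the report, was 0 under cyclic loess normalization, the replicate block, adjustment over 1 probe set per gene and the threshold of 0.01, and between 0 and 1 when arrays were left out. The median difference was 0.14 with the filter on dim probe sets, which leaves 12 of the 23 genes. This filter used the mean over the arrays of both genotypes, so it was not blind to genotype. CYP71B23 (difference 0.54) was kept with a mean of 4.47 in 35S::KLU, while its WT mean of 3.93 was below the cutoff of 4.09. Arrays with the same replicate number did not deviate together (correlations of -0.205, 0.0392 and -0.056 for replicates 1, 2 and 3), and the labels do not say that equal numbers mark a shared experiment, so they were not treated as pairs. With the replicate block the adjusted p was 0.108 for CYP71B22 and 0.046 for CYP71B37, and calls over all probe sets went from 1893 to 1279.

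In 14 cases an estimate called in neither setting changed sign, in 6 genes with estimates of at most 0.06 in size. Array weights gave -0.0078 for CYP71B31 and -0.025 for CYP78A9. Leaving out arrays gave -0.0212 to 0.0274 for CYP78A9, -0.0214 to 0.017 for CYP71B31, -0.0506 to 0.021 for CYP51G2, -0.022 to 0.0838 for CYP71B21, -0.0373 to 0.1337 for CYP71B28 and -0.1844 to 0.0033 for CYP71B29. The number of arrays limits the precision, and for the 11 dim genes it was not tested whether RMA understates a change.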

Other observations

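CYP718, a P450 gene whose symbol carries no subfamily letter and which the selection therefore left out, had log2 means of 4.75 ± 0.08 in WT and 4.75 ± 0.07 in 35S::KLU (SD over n = 3 arrays), a difference of 0.01 (limma adjusted p = 0.97). The 2 probe sets that list a P450 gene together with another gene differed by 0.21 (the brighter probe set, interval 0.01 to 0.42, limma adjusted p = 0.22) and by -0.03 (the dimmer one, limma adjusted p = 0.88). For the brighter probe set the values were 8.54, 8.35 and 8.21 in WT and 8.59, 8.51 and 8.64 in 35S::KLU, and the groups overlapped. Which of its listed genes it reports was not determined.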
